A study of Mus musculus with 2 samples.

Results

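Footprint-dense open regions were the 695 of 63564 autosomal shared regions that wholly contained 8 or more DNase I footprints in each of both replicates. They were selected on footprint counts, so the counts themselves are given as a description with no test. A shared region was a merged stretch holding an open-chromatin peak of each replicate, taken from the shorter of the peak lists deposited per library. The regions made up 1.09% of the shared regions and 2.39% of their bases. They were compared with shared regions of equal width that held 2 to 4 footprints in each replicate, here called width-matched regions, and with all shared regions.

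DNase-seq libraries came from right cerebral cortex of adult female B6CASTF1/J mice, first-generation hybrids of C57BL/6J and CAST/EiJ, aged 18 to 20 months. There was 1 group of 2 biological replicates, without a treatment, a second genotype or a control, and mice were therefore not compared between groups. Both replicates carry the same donor identifier in the labels, so that part of their spread may be technical. Replicate 1 had 86601 peaks and 307092 footprints, and replicate 2 had 88482 peaks and 279769 footprints. Each library's peak values came in whole steps (tolerance 0.05 steps). Taking a step as 1 read per M reads (M for mega) puts the libraries at 201 M and 112 M reads, an inference since the files state no depth.

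DNase I cuts DNA that is not wrapped in nucleosomes, so dense cutting marks promoters, enhancers and other regulatory elements. Within such an element a bound protein shields its contact bases from the enzyme, and the short gap in cutting that it leaves is called a footprint. Many promoters of broadly expressed genes lie in CpG islands, stretches rich in G and C that keep the CpG dinucleotides lost from most of the genome, and Sp/Klf, Nrf1, Ets, CREB and NF-Y are factor families known to bind such promoters. Footprint calling works on cut counts, so the depth of cutting in a region bears on how many footprints can be called there.

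The reference sequences below come from the highest-ranked region of each location class and show how footprints lay within it. Each is the 300-base stretch with the most whole footprints over both replicates, outside annotated UTRs. Capitals mark bases inside a footprint of both replicates. All are plus-strand sequence of GRCm38.p6 (mm10), which carries the C57BL/6J allele, and the CAST/EiJ allele of these hybrids is not shown.
Crlf2 promoter, chr5:109556945-109557244: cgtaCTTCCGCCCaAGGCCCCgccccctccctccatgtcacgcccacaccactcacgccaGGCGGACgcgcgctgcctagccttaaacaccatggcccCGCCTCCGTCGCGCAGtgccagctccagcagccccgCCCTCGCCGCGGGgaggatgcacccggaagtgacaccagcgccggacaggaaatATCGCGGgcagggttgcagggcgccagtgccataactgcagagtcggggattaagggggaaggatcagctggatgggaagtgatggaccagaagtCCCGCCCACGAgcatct
Tchh exon, chr3:93444599-93444898: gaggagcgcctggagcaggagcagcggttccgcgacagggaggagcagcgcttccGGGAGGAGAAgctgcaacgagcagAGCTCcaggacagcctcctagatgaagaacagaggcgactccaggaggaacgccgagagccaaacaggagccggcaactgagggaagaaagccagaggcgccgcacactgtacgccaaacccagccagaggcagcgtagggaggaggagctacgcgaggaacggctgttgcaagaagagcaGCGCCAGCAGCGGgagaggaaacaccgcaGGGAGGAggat
Clec11a intron, chr7:44304871-44305170: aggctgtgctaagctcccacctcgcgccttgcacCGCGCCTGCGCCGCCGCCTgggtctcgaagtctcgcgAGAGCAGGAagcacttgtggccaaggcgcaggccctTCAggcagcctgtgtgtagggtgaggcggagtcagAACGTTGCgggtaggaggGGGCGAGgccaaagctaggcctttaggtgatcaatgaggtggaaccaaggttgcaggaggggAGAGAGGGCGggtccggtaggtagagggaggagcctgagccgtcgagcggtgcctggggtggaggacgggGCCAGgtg
Intergenic, nearest coding gene Rps6ka1, chr4:133813234-133813533: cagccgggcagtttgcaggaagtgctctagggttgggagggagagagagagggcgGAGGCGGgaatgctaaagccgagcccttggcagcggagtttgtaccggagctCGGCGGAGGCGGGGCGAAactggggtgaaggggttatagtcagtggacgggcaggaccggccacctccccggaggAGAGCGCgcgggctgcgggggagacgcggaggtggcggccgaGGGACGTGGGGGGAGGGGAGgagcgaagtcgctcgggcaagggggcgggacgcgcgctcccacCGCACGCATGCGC
The Crlf2 window held 8 footprints in each replicate, and 23.3% of its bases were in a footprint of both. In the Tchh window replicate 1 had 8 footprints and replicate 2 had 6, and 11.7% of the bases were shared. The Clec11a window held 8 and 9 footprints in replicates 1 and 2, with 20.3% of its bases in both. The intergenic window held 8 in each, with 21.7% in both. The G+C content was 67.0% in the Crlf2 window, 63.7% in the Tchh window, 66.3% in the Clec11a window and 71.0% in the intergenic window. The intergenic window had the highest G+C content of these windows and the Tchh window the lowest.

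The counts were 8 to 23 footprints per region in replicate 1 and 8 to 22 in replicate 2, with a median of 9 in each. In 204 regions both replicates had the same count, in 233 replicate 1 had more and in 258 replicate 2 had more. Replicate 1 alone had 1526 shared regions with 8 or more footprints, of which 45.5% also passed in replicate 2. Replicate 2 alone had 1812, of which 38.4% also passed in replicate 1. Fewer than 50% of the regions that were dense in 1 replicate were therefore dense in the other. Just inside the threshold, 343 regions had a lower count of 8, a median width of 440 bp and a promoter share of 81.9%. Just outside it, 756 regions had a lower count of 7, a median width of 380 bp and a promoter share of 83.9%.

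Counting per region favours wide regions, so the counts are also given per length, as a description of values that the rule used. Median footprint density was 1.90 per 100 bp in replicate 1 and 1.92 in replicate 2 in the dense regions, 1.07 and 1.05 in the pool of width-matched regions, and 1.15 and 1.11 in all shared regions. The lowest density among the dense regions was 0.519 per 100 bp in replicate 1 and 0.50 in replicate 2, so some members met the rule by width. The dense regions were 260 to 1940 bp wide with a median of 520 bp, against a median of 240 bp over all shared regions. The pool was mostly narrower than the dense regions, with a median of 280 bp. Its values are not weighted by width, so they are not a comparison at equal width.

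The dense regions also had higher peak values, the authors' deposited signal per peak. The median peak value in replicate 1 was 2.27 in dense regions and 0.855 in all shared regions. In replicate 2 it was 3.15 in dense regions and 1.24 in all shared regions. At equal width the mean peak value was 3.21 in the 600 dense regions with a width-matched region and 0.934 in the width-matched regions in replicate 1. In replicate 2 these means were 3.93 and 1.23. A region's peak value is that of its strongest peak. Under the inferred depth the median value of the dense regions stood for 457 reads in replicate 1 and 353 reads in replicate 2. For a single region with such a count, the exact 95% Poisson interval is 416 to 501 and 317 to 392 reads. These intervals cover counting error only and are neither intervals of the median nor the spread over regions. The medians over all shared regions stood for 172 and 139 reads.

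Width and peak value moved in opposite directions among the dense regions. Spearman's rho between width and mean log2 peak value was -0.51 over the 695 dense regions and 0.23 over all shared regions. Both are given as descriptions, because all regions share the same libraries and the rule bears on the first value. Over all shared regions the mean footprint count rose with width (rho 0.456) and with peak value (rho 0.604). Choosing regions by footprint count can therefore by itself set width against peak value among the members. The 50 members of 1000 bp or more had peak values of 0.577 to 1.78 in replicate 1 (median 0.907) and 0.687 to 2.30 in replicate 2 (median 1.35). In 48 of these 50 several peaks of replicate 1 had been merged, and in 48 several peaks of replicate 2. The 170 members of 400 bp or less had 0.606 to 7.89 in replicate 1 (median 3.56) and 1.25 to 9.23 in replicate 2 (median 4.46). Both kinds lay mostly at promoters, 92.0% of the wide and 87.1% of the narrow members.

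**Figure D1:**
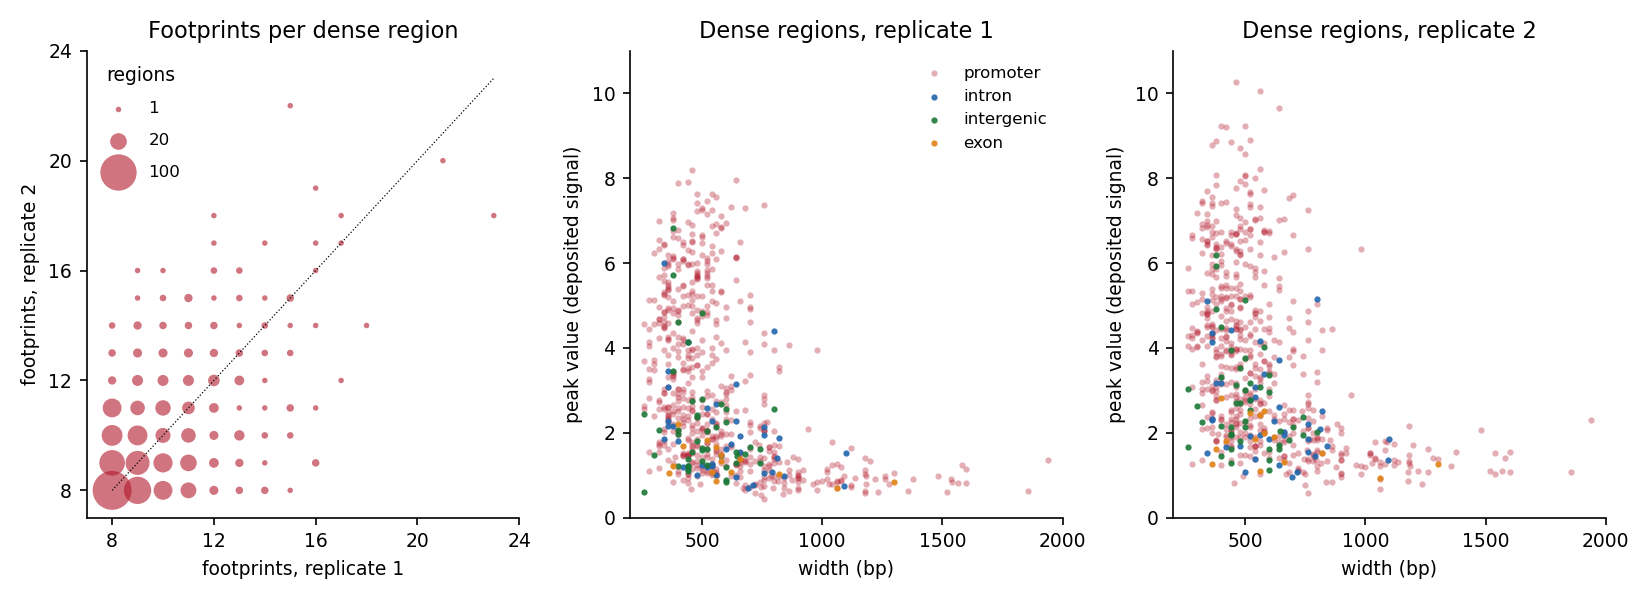
Footprint counts and peak values of the 695 footprint-dense regions. The left plot gives the footprint count in replicate 1 against replicate 2, with circle area growing with the number of regions and a dotted line at equal counts. The other plots give peak value (deposited signal, linear axis) against width in bp for each replicate, coloured by location class. Members of 1000 bp or more stay at or below 1.78 in replicate 1 and 2.30 in replicate 2.

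Members were then placed by location. A promoter was the stretch within 500 bp of any annotated start site, and the other regions were placed by their midpoint. Promoters held 596 of the 695 dense regions, or 85.8% (exact 95% interval 82.9 to 88.3), against 28.6% of all shared regions. Among dense regions with a region of equal width the share was 85.5%, against 40.5% in the width-matched regions. Introns held 39 dense regions or 5.61% (4.02 to 7.59), against 27.8% of the width-matched regions. Intergenic sequence held 45 or 6.47% (4.76 to 8.57), against 28.1%, and exons held 15 or 2.16% (1.21 to 3.53), against 3.64%. The intervals, which are over all 695 dense regions, lay clear of the width-matched values for the promoter, intron and intergenic shares. The interval of the exon share ended just below its width-matched value. The width-matched values carry no interval, so the exon shares are not set apart. Intervals cover counting error only, and regions are not replicates.

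Dense regions were also mostly CpG-rich, that is at least 50% G+C with an observed over expected CpG ratio of at least 0.6. In all, 603 of 695 met this, or 86.8% (84.0 to 89.2), against 29.5% of the width-matched regions and 24.1% of all shared regions. Mean G+C content was 65.9% ± 7.34 in the dense regions (SD over 695 regions), 54.5% in the width-matched regions and 53.3% in all shared regions. The mean CpG ratio was 0.815 ± 0.207 in the dense regions, 0.460 in the width-matched regions and 0.411 in all shared regions. Repeat-masked sequence took 6.08% of the bases of a dense region on average and 8.33% of a width-matched one.

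**Figure D2:**
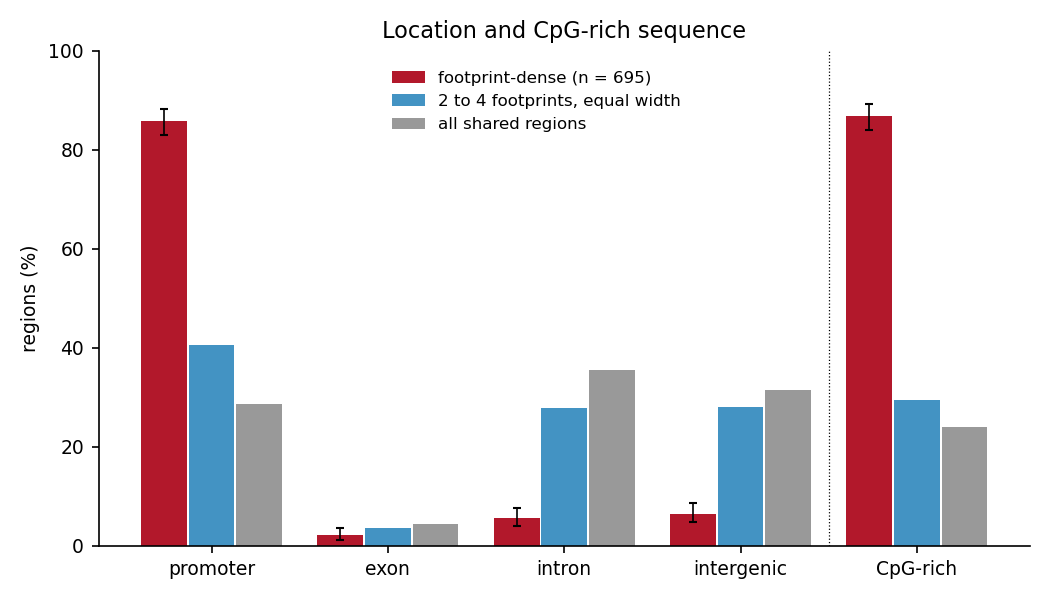
Share of regions in each location class and share with CpG-rich sequence, in percent from 0, for the 695 footprint-dense regions (left bars, with exact 95% intervals), regions of equal width with 2 to 4 footprints (middle bars, standardised to the widths of the dense regions) and all shared regions (right bars). Promoters hold 85.8%, 40.5% and 28.6%, and CpG-rich regions make up 86.8%, 29.5% and 24.1%.

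Because peak values, CpG content and promoter location moved together, the width-matched shares were recomputed with more features held equal, in comparisons chosen after seeing the data. With width within 20 bp and the same of 20 equal-sized bins of peak value, 338 dense regions had a match, and their mean peak values were 2.65 against 2.55 in replicate 1 and 3.38 against 3.14 in replicate 2. The promoter share was then 83.4% in dense and 59.1% in matched regions, and the CpG-rich share 85.5% in dense and 47.5% in matched regions. These 338 are not the same members as the 600 matched on width alone, so the differences of both comparisons are not set against each other. With width and CpG-rich status held equal instead, the promoter share was 85.4% in dense and 78.5% in matched regions. With width and promoter status held equal, the CpG-rich share was 86.6% in dense and 56.2% in matched regions. The difference in promoter share was 6.98 percentage points within CpG-rich status, and the difference in CpG-rich share 30.5 points within promoter status.

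Over all shared regions, both shares climbed with the lower footprint count of the replicates up to a count of 7. Regions with a lower count of 1 were promoters in 13.3% and CpG-rich in 8.97% of cases, those with 4 in 49.1% and 44.1%, and those with 7 in 83.9% and 83.2%. Regions with a lower count of 8 stood at 81.9% and 83.4%, and those with 10 at 89.2% and 95.2%. Among the 59 members with a lower count of 12 or more, 57 were promoters and 53 were CpG-rich. Regions without any footprint in 1 replicate departed from this order, with 31.5% promoters.

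**Figure D3:**
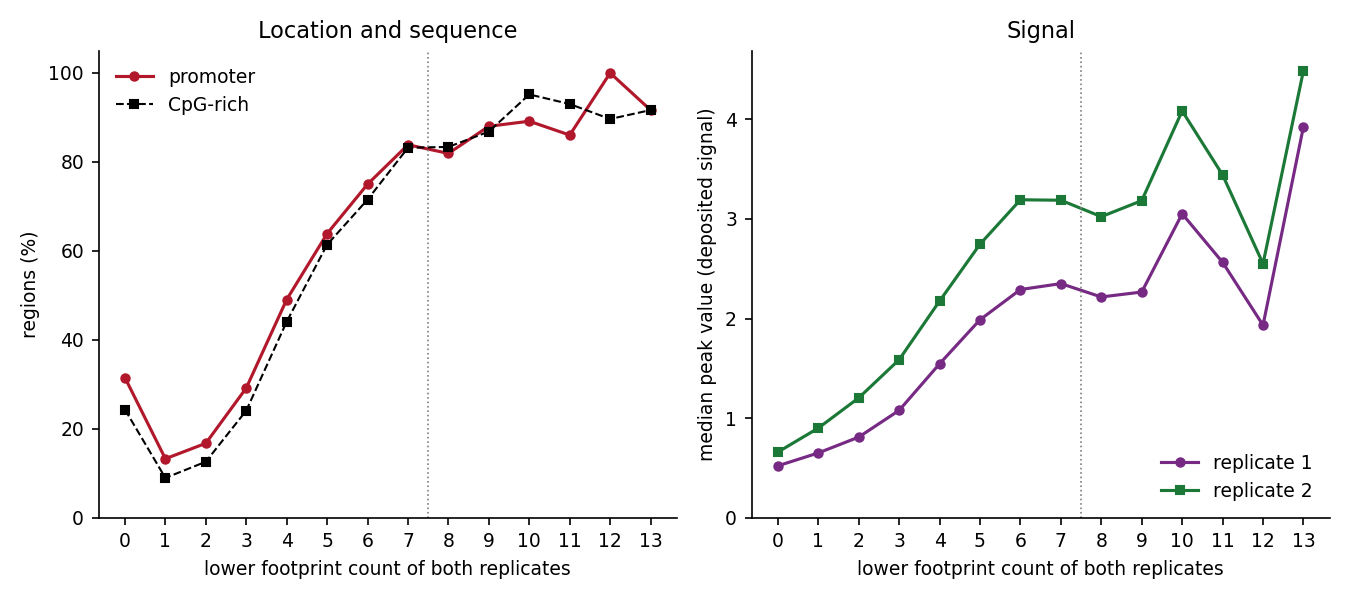
Left, promoter share (circles) and CpG-rich share (squares) of shared regions, in percent, by the lower footprint count of both replicates. Right, median peak value (deposited signal) of the same regions in replicate 1 (circles) and replicate 2 (squares). The dotted line marks the threshold of 8. Counts with fewer than 12 regions are left out, and the point at 13 rests on 12 regions. Both shares climb between counts of 1 and 7 and are 81.9% or more at each later count shown, and the medians climb up to a count of 6 and vary without a steady order after 7.

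Regions were ranked by the lower count, with ties ordered by the mean count and then by position. The 10 highest-ranked regions had widths of 660 bp or more and overlapped promoters, and an intronic region of Clec11a with the same counts as the last of them, Garnl3 and Abtb1, came next by position. The first was the 980 bp region chr5:109556761-109557740 at Crlf2, which encodes a subunit of the receptor for the cytokine TSLP, with 21 footprints in replicate 1 and 20 in replicate 2. Its midpoint was 778 bp from the nearest GENCODE start site, and RefSeq has none within 500 bp of the region. The second was the widest of all members, 1940 bp at chr10:39731401-39733340 over the start of Rev3l, the catalytic subunit of the translesion DNA polymerase zeta, with 23 and 18 footprints. Its peak values were only 1.36 in replicate 1 and 2.30 in replicate 2, against 3.94 and 6.32 at Crlf2.

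The next regions were at Mb21d2 with 17 footprints in replicate 1 and 18 in replicate 2, and at Chst15, a chondroitin sulfotransferase, with 17 in each. Wipi1, which acts in autophagy, had 16 and 19, and Cltc, the clathrin heavy chain of endocytic vesicles, had 16 and 17. Mdga2, a cell-surface protein that regulates synaptic adhesion, had 16 in each. Plppr5 had 15 and 22, the widest gap among the 10. Garnl3 and Abtb1 had 15 in each. The 10 were of mixed kinds, since Wipi1 had peak values of 5.10 and 6.27 while Mb21d2 had 0.621 and 1.07 over 1857 bp.

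Promoter members were mostly coding. A protein-coding start site lay within reach of 580 of the 596, or 97.3% (95.7 to 98.5). Among promoter regions of equal width the shares were 97.1% in dense and 87.2% in width-matched regions. Start sites on both strands were found at 26.7% of dense promoter regions (23.2 to 30.4), and at equal width these shares were 27.8% in dense and 15.2% in width-matched regions. Coding start sites on both strands were found at 11.2% (8.82 to 14.1), and at equal width at 12.1% of dense and 3.74% of width-matched regions. Whether such start sites pointed away from each other, as in a bidirectional promoter, was not checked. Dense promoter regions had a mean of 3.77 distinct start sites, and at equal width 3.82 in dense and 2.81 in width-matched regions. Peak values differed as well, at 3.42 and 0.991 in replicate 1 and 4.17 and 1.42 in replicate 2, and their part in these differences was not tested.

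Footprints in dense promoter regions were most frequent just upstream of the start site. Around the 580 coding start sites, replicate 1 had 2.28 footprint midpoints per 100 bp between 100 and 50 bp upstream, and replicate 2 had 2.14. In the 50 bp next to the start site the values were 2.16 in replicate 1 and 2.20 in replicate 2. Between 450 and 500 bp downstream they were 1.03 and 0.777. In the pool of 1361 coding promoter regions with 2 to 4 footprints the highest values were 1.51 and 1.54, in the 50 bp upstream of the start site. The difference in level between both sets is fixed by the choice of regions, and the profiles are given as a description. At 200 to 250 bp upstream the dense regions had 1.84 in replicate 1 and 1.77 in replicate 2.

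**Figure D4:**
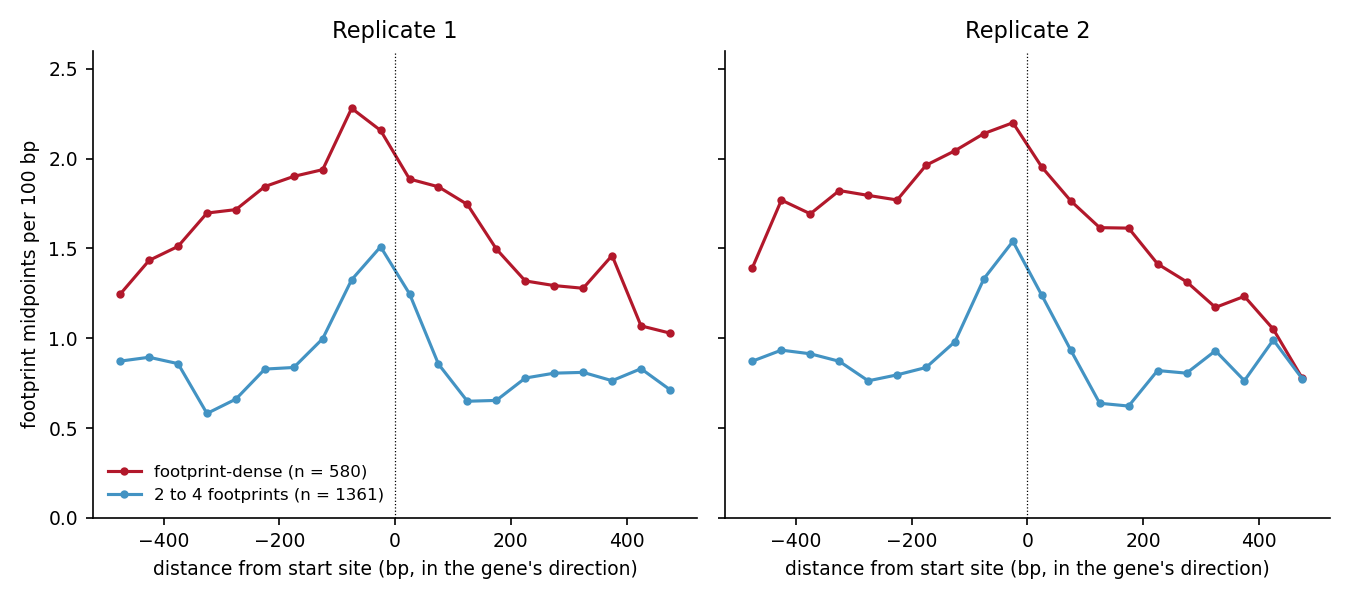
Footprint midpoints per 100 bp of open region, in 50 bp steps of distance from the nearest protein-coding start site (negative is upstream), for 580 footprint-dense regions and 1361 regions with 2 to 4 footprints of the same set of widths. Replicate 1 is on the left and replicate 2 on the right. Dense regions reach 2.28 in replicate 1 and 2.20 in replicate 2, and the other regions 1.51 and 1.54.

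The place of footprints within a region is given as a description, since it is bound up with their number. With each region divided into 5 equal segments, the first segment held 16.5% of the footprints in replicate 1 and 16.9% in replicate 2, and the central segment 22.1% in each. The pool of width-matched regions was mostly narrower (median 280 bp). There the first segment held 9.72% and 9.97%, and the central one 30.7% and 30.2%. Neighbouring footprint midpoints were a median of 42 bp apart in dense regions in each replicate and 54 bp in the pool. Footprints had a mean width of 11.9 bp in replicate 1 and 13.5 bp in replicate 2 in dense regions, 11.3 and 12.4 bp in the pool, and 11.9 and 13.6 bp in all shared regions. They were wider in dense regions than in the pool within each replicate, by less than the difference between the replicates, and were not wider than in all shared regions in either.

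Footprint positions were compared between replicates. In dense regions 66.5% of the footprints of replicate 1 and 63.3% of those of replicate 2 overlapped a footprint of the other replicate, a mean of 64.9 ± 2.25% (SD, n = 2). The mean was 49.9 ± 0.381% in the pool of width-matched regions, taken without weights for width, and 54.4 ± 1.11% in all shared regions. These values are a description, because the rule sets how many bases are covered and more covered bases raise overlap by themselves. The midpoint of a footprint of replicate 1 lay in one of replicate 2 in 57.0% of cases, where footprints of replicate 2 covered 23.3% of the bases. In the other direction it was 51.3%, with 20.3% of the bases covered. In the pool the midpoint shares were 41.1% and 38.9%, with 12.4% and 11.4% of the bases covered.

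The promoter members reached 647 of 20807 autosomal protein-coding genes, or 3.11%, and 5.27% of the 12276 genes with a shared region at a promoter. Gene lists were read against the 3.11% of all genes. Lists differed in how many of their genes had a shared promoter region, so some shares are also given over those genes. The latter are to be read against 5.27%. Members of the lists were few, and no list is set apart by a test.

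Genes for splicing and RNA-binding proteins had the highest share of any list, 12 of 71 genes or 16.9% (9.05 to 27.7). Over the 70 with a shared promoter region it was 17.1%. Hnrnpul1, an hnRNP-like RNA-binding protein, had 16 footprints in replicate 1 and 11 in replicate 2. Srsf6, a serine/arginine-rich splicing factor, had 13 and 10, and Rbfox2, a splicing regulator related to the neuronal marker NeuN, had 10 and 11. Others were Ptbp1, Elavl4, Hnrnpd, Hnrnpa2b1, Hnrnph1, Snrpe, Hnrnph3 and Nova1, with a lower count of 8 or 9.

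Heat shock and chaperone genes had 7 of 82, or 8.54% (3.50 to 16.8). Over the 73 with a shared promoter region it was 9.59%, to be read against 5.27%. This second share carries no interval, so it is not set apart from 5.27%. Hspa2, an Hsp70 family member, had 11 footprints in replicate 1 and 10 in replicate 2. Hspd1 and Hspe1, the paired mitochondrial chaperonins transcribed from opposite sides of 1 promoter, shared a region with 9 and 13. Hsp90b1, the chaperone of the endoplasmic reticulum, had 10 and 9. Among the other 3 was Hspa8, the constitutive Hsp70, with 8 in each and peak values of 7.92 and 8.85.

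Lists of chromatin, clock and activity-regulated genes were small. CTCF, cohesin and remodelling genes had 3 of 38 (7.89%), which were the chromodomain helicase Chd7 with 14 footprints in each replicate, the cohesin subunit Stag1 with 10 and 13, and Chd1 with 8 and 9. Clock genes had 2 of 19 (10.5%), the repressor Nfil3 with 11 and 15 and Per3 with 9 and 8. Activity-regulated genes had 2 of 25 (8.0%), the AP-1 subunits Jun with 8 and 9 and Jund with 9 and 8. The exact intervals of these 3 lists all held 3.11%.

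Oxidative phosphorylation had 4 of 81 genes (4.94%), at Atp5g1, Ndufs7, Uqcrq and Ndufv2. Cytosolic ribosomal protein genes had 3 of 81 (3.70%), led by Rps19 with 10 footprints in replicate 1 and 16 in replicate 2, then Rpl4 and Rps23. Proteasome genes had 0 of 38, and 36 of the 38 had a shared promoter region. For this list an observed 0 allows a share of up to 9.25% by the exact interval, which holds 3.11%. The replication-dependent histone list had 2 of 65 (3.08%), Hist2h2ac and Hist2h2be, which shared 1 region with 10 and 12. Zfp genes had 10 of 383 (2.61%), with Zfp407, Zfp78, Zfp385b and Zfp184 ranked highest. Homeodomain and forkhead genes had 2 of 139 (1.44%), the POU factors Pou3f2, with 10 in each, and Pou2f1, with 10 and 9. Over the 39 homeodomain and forkhead genes with a shared promoter region the share was 5.13%, near the 5.27% of all such genes. Open promoters were common in the first 3 of these lists, at 90.1%, 96.3% and 94.7% of their genes, with dense regions near the background share or lower.

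Cell type lists gave 1 gene in all. Tle4, a corepressor used as a marker of deep-layer cortical neurons, was the 1 of 18 excitatory cortical genes (5.56%), with 10 footprints in replicate 1 and 11 in replicate 2. Its peak values, 8.18 and 10.3, were the highest of all members in both replicates. None of the 23 pan-neuronal, 17 inhibitory, 16 astrocyte, 17 oligodendrocyte-lineage, 18 microglia or 16 vascular genes had a dense promoter region, nor did any of 14 striatal and cerebellar or 15 hepatocyte and muscle genes. For the pan-neuronal list, where 22 of 23 genes had a shared promoter region, an observed 0 allows a share of up to 14.8% by the exact interval.

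Separate marker genes were set beside the tissue label. Of all 20807 autosomal protein-coding genes, 12276 had a shared promoter region. Shared promoter regions were found at 4 of 8 cortical excitatory, 5 of 5 pan-neuronal, 1 of 6 inhibitory, 2 of 5 astrocyte, 1 of 4 autosomal oligodendrocyte and 1 of 5 microglia markers, and at 0 of 4 endothelial, 2 of 4 striatal, 1 of 4 cerebellar, 0 of 4 hepatocyte and 0 of 4 muscle markers. The cortical excitatory share equalled the striatal one and lay below that of all coding genes, so these few counts do not tell cortex from striatum. None of these markers had a dense promoter region. In bulk tissue, fewer cells of a type and less open chromatin per cell cannot be told apart.

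Assigned to the coding gene of an overlapped promoter, or else to the nearest coding start site within 100000 bp, the members fell to 739 genes, of which 14 had 2 or more. Klf9, a Krüppel-like transcription factor induced by glucocorticoids, was assigned 3 regions on chromosome 19, 560 and 4500 bp apart. The second in rank overlapped its promoter, and the other two overlapped the promoter of the lincRNA gene 2410080I02Rik, 5435 and 6715 bp from the start of Klf9. Counted from the highest rank they had 12, 9 and 8 footprints in replicate 1 and 16, 10 and 10 in replicate 2. Chd9, another chromodomain helicase, had 3 over a promoter, an intron and an exon, with 9, 9 and 8 footprints in replicate 1 and 8, 10 and 8 in replicate 2. Ppp2r3d, a regulatory subunit of protein phosphatase 2A, had 3 regions at chr9:124423581-124424380, chr9:124424481-124424880 and chr9:124424901-124425340, only 100 and 20 bp apart. Their counts were 11, 10 and 9 in replicate 1 and 13, 11 and 8 in replicate 2. Chd7 and Camta1, a calmodulin-binding transcription activator, had 2 each. Of all members, 8 neighbouring pairs lay within 5000 bp of each other.

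Outside promoters there were 99 members, with a median distance of 5872 bp from any start site and 32 beyond 10 kb. Of the 99, 42 were CpG-rich, or 42.4% (32.5 to 52.8), and at equal width these shares were 40.2% in dense and 6.80% in width-matched regions. Their mean peak value at equal width was 2.01 in dense and 0.939 in width-matched regions in replicate 1, and 2.57 and 1.14 in replicate 2. For 16 of the 99, RefSeq placed a start site within 500 bp where GENCODE M21 did not, and for 24 of the 596 promoter members RefSeq had none, so the class of these regions depends on the annotation used. Transfer RNA genes lay under 6 of the 695 members, 3 of them outside promoters, and microRNA genes under 4, none of them outside promoters. No share over the other shared regions is given for these genes, so the counts do not set the members apart.

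The leading intronic members were at Clec11a, a secreted C-type lectin, with 15 footprints in each replicate and peak values of 4.40 and 5.14, at the glycine transporter gene Slc6a9 with 14 and 10, and in the noncoding gene Lncppara with 14 and 10. Of the 3 leading intergenic members, the first lay 47359 bp from the coding gene Rps6ka1, with 13 in each. The second was 970 bp from Fbxo11 with 11 and 14, where RefSeq has a start site. The third was in a stretch whose nearest coding gene was the nuclear receptor gene Nr1d2, with 11 and 13. The nearest start site of any gene was 2849 bp from the Rps6ka1 region and 7141 bp from the Nr1d2 region. The Nr1d2 region, 105171 bp from that gene's start, had 44.4% G+C and the lowest CpG ratio of all members, 0.0956. The leading exonic members were in Tchh with 11 in each, Prdm12 with 10 and 15 and Exoc3l2 with 13 and 10. Tchh encodes trichohyalin, a structural protein of hair follicles, and Prdm12 a regulator of sensory neuron development, and neither gene is a cortical marker. All 3 exonic regions were CpG-rich, and the Tchh region had peak values of 1.40 and 1.31, below the medians of all members.

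Short strings known as binding motifs were searched on both strands, and each was set beside the same letters reversed, which keeps the base composition but can add or remove a CpG. A match is a description and not a bound site. Unless a kind of promoter is named, dense shares are over all 695 dense regions. Width-matched shares are weighted to the widths of the 600 with a match, so the sets of widths differ. The CRE string TGACGTCA, read by CREB family factors, was found in 4.60% of dense regions, 1.30% of width-matched regions and 1.32% of all shared regions. Of its 34 matches in dense regions, 67.6% lay wholly in a footprint in replicate 1 and 79.4% in replicate 2, against 0 of the 6 matches of the reversed letters in either replicate. The Nrf1 string GCGCATGCG was found in 4.46% of dense, 2.20% of width-matched and 1.08% of all shared regions, and 60.4% and 71.7% of its 53 matches lay in a footprint. These 2 strings were the most often footprinted of those with 20 or more matches. In the pool of width-matched regions the CRE values were 62.7% and 59.0%, and the Nrf1 values 76.7% in each replicate, so the share of matches in a footprint was not raised in dense regions for Nrf1.

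The Sp/Klf GC box GGGGCGGG was the string most widespread in dense regions, at 53.7%, against 14.0% of width-matched and 9.49% of all shared regions. Its reversed letters GGGCGGGG, which also hold the core of a GC box, gave 55.7% in dense and 14.3% in width-matched regions, so the string could not be told apart from G-rich sequence. Among CpG-rich promoter regions the GC box was in 58.7% of dense and 36.1% of width-matched regions. The Ets string CCGGAAGT was in 6.33% of dense, 1.23% of width-matched and 2.02% of all shared regions, against 2.30%, 1.38% and 0.833% for its reversed letters. Of its 50 matches in dense regions only 16.0% in replicate 1 and 8.0% in replicate 2 lay wholly in a footprint. The NF-Y box AGCCAAT was in 16.8% of dense, 8.92% of width-matched and 5.17% of all shared regions, against 1.29%, 1.48% and 0.519% reversed, with 15.1% of its 152 matches in a footprint in each replicate.

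The AP-1, Neurod and Nfi strings were less frequent in dense regions than in width-matched regions. The AP-1 string TGANTCA was in 7.91% of dense, 19.8% of width-matched and 14.6% of all shared regions. Its reversed letters were also less frequent, in 4.60% of dense, 9.24% of width-matched and 5.57% of all shared regions, so this gap could not be told apart from base composition. The Neurod E-box CAGATG was in 21.4% of dense, 38.8% of width-matched and 26.2% of all shared regions, against 9.50%, 9.68% and 5.39% reversed. The Nfi string TTGGCA was in 17.4% of dense, 31.8% of width-matched and 19.5% of all shared regions, against 7.34%, 4.91% and 3.18% reversed. Among CpG-rich promoter regions the AP-1 values were 5.35% in dense and 4.70% in width-matched regions. The AP-1 gap was thus not found within this kind of promoter. There the Neurod values were 16.6% in dense and 21.7% in width-matched regions, a smaller gap in the same direction. For Nfi they were 14.8% in dense and 11.8% in width-matched regions, the other way round. The part of promoter location and CpG content in these gaps was not tested. The CTCF consensus was in 9 of the 695 dense regions, or 1.29%, against 0.714% of width-matched and 5.86% of all shared regions. With so few regions, the dense and width-matched shares are not set apart.

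**Figure D5:**
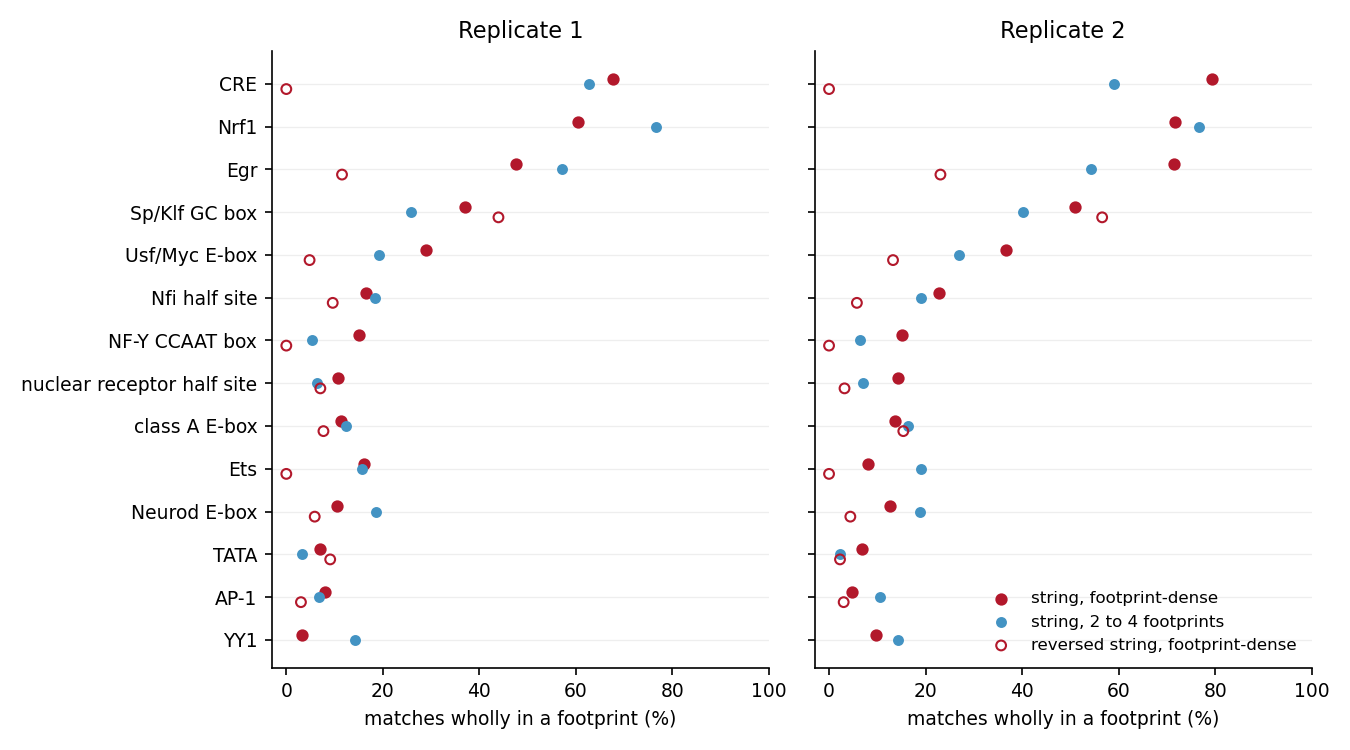
Share of motif matches that lay wholly inside a footprint, in percent, for strings with 20 or more matches in the footprint-dense regions. Filled upper points are matches in dense regions, filled middle points those in regions with 2 to 4 footprints of the same set of widths, and open points the reversed letters in dense regions where these had 5 or more matches. Replicate 1 is on the left and replicate 2 on the right. CRE stands at 67.6% and 79.4% with its reversed letters at 0, and YY1 at 3.23% and 9.68%.

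YY1, a zinc finger factor, gave a case of clustered strings. Its string AAGATGGCG was found in 22 members, or 3.17% of dense regions, against 1.01% of width-matched and 1.01% of all shared regions. Of its 31 matches in members, 3.23% lay wholly in a footprint in replicate 1 and 9.68% in replicate 2. In the pool of width-matched regions 14.3% of the matches did in each replicate. Of the 31, 7 lay in the 2 members in an intron of Peg3. Peg3 is an imprinted gene, expressed from the paternal allele, and repeated YY1 sites at this gene are known from mouse. The regions chr7:6727381-6728020 and chr7:6728301-6728940, 280 bp apart, held 11 and 8 footprints in replicate 1 and 9 and 11 in replicate 2, with peak values of 2.29 and 3.15 in replicate 1 and 2.61 and 3.72 in replicate 2. The first had 3 matches and the second 4, and of these 7 only 1 lay wholly in a footprint, in replicate 2. Neither was CpG-rich, with CpG ratios of 0.323 and 0.380. A stretch of the second region, picked after its values were seen, is given because the strings can be read in it, again in plus-strand mm10 with capitals for bases in a footprint of both replicates.
Peg3 intron, chr7:6728610-6728909: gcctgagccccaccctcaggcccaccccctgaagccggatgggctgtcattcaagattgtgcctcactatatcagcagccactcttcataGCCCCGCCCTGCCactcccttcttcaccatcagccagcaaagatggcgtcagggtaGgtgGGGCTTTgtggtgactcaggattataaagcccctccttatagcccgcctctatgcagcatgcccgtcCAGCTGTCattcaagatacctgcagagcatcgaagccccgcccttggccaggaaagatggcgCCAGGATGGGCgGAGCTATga
In this stretch the footprints of both replicates covered 15.7% of the bases, and both matches of the string in it lay outside those bases. Other members with 2 or more matches were at B3galt6 and Sdf4, Ptbp1, and Rab22a.

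Dense regions were found on all 19 autosomes. The share of shared regions that were dense was highest on chromosome 19, with 33 of 1849 (1.78%), and lowest on chromosome 13, with 21 of 3040 (0.691%).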

How the data were processed

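DNase-seq peaks and footprints were deposited per library in mm10 coordinates, per the file headers and text descriptions. Aligner, peak caller and footprint caller: not given in the sources used here. Each library has 2 peak lists with a signal per peak, whose scaling by the authors is not stated. Every deposited footprint has an FDR (p-value threshold) of 0.01, 1 constant for the whole list. The deposited lists of cut-rate FDR were not used here. Depth is not stated, and was inferred from the step of the peak values.

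The shorter peak lists of both replicates were merged by overlap of at least 1 bp, and a region kept the strongest peak value of each replicate. Footprints counted when wholly inside a region. Start sites, exons and genes came from GENCODE M21, sequence and RefSeq features from GRCm38.p6. Width-matched shares are means over shared regions of exactly equal width with 2 to 4 footprints in each replicate, weighted by the number of dense regions of each width (direct standardisation). A match was found for 600 of the 695 dense regions, in a pool of 6070 of the 26185 regions with 2 to 4 footprints. Where the text says pool, values are over those 6070 regions, which are mostly narrow (median 280 bp), without weights. Shares carry exact (Clopper-Pearson) 95% intervals. No test was run, because the series has 1 group, regions are not replicates and the regions were chosen by footprint counts.

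The rule and the gene and motif lists were chosen with earlier results of these data known. Named genes were the 10 regions with the highest lower count of both replicates, the 3 highest per location class, up to 4 genes per list and the 5 genes with the most regions. Peg3, Hspa8 and the other genes listed beyond these were named after their values were seen. An item that the rule would name is not reported here. Alternatives varied the footprint minimum, peak list, overlap, promoter width, matching and chromosomes, and left out each replicate. The counting, merging and standardising steps were tested on simulated data. Python 3.11.15 was used with numpy 2.4.6, pandas 2.3.3, scipy 1.17.1 and matplotlib 3.10.9.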

Additional observations from a re-analysis of the deposited data

How the results depend on the processing

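The dense regions had higher promoter and CpG-rich shares than matched regions under all alternatives run, while the numbers depended on the settings. With a minimum of 6 footprints there were 3011 dense regions at 2565 coding genes, with promoter shares of 79.7% in dense and 32.1% in width-matched regions and CpG-rich shares of 78.0% and 23.4%. With a minimum of 10 there were 185 at 187 genes, with 90.8% and 47.9% promoters and 93.0% and 35.7% CpG-rich. Without replicate 1 or without replicate 2 there were 1078 to 1304 dense regions at 897 to 1140 genes, promoter shares of 79.3% to 80.2% in dense and 41.5% to 43.2% in width-matched regions, and CpG-rich shares of 76.8% to 77.7% and 33.1% to 34.5%. With the longer peak list the width-matched shares were 32.1% promoter and 23.1% CpG-rich. With peaks at or above the median value the width-matched CpG-rich share was 37.6%. A promoter of 100 bp on either side of a start site gave 80.1% in dense and 29.7% in width-matched regions, and one of 2000 bp gave 90.5% and 47.2%. Matching on width within 20 bp and on 4 bins of peak value gave a width-matched CpG-rich share of 33.5%. In alternatives chosen after seeing the data, 20 bins of peak value gave width-matched shares of 59.1% promoter and 47.5% CpG-rich. Holding the other of both features equal gave 78.5% promoter and 56.2% CpG-rich. The cause of these shifts was not tested. The share of footprints overlapped by the other replicate stayed within its SD, at 63.1% to 66.2%, in the 7 alternatives that give one, and leaving out a replicate gives none. No paired analysis was possible because the series has 1 group of samples to compare, and the region sets are set side by side within each replicate. The number of replicates and the unstated depth limit what can be said of single regions.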

Other observations

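Internal repeats did not set the dense regions apart. Regions in which at least 10% of the 12-base words occurred more than once made up 1.33% of the dense regions with a match and 1.11% of the width-matched regions. In all there were 9 such members. The highest was at B3galt6 and Sdf4, where 43.1% of the words recurred and replicates 1 and 2 had 13 and 15 footprints. Others were at Ripk2 with 36.8% and in the exon of Lor, the gene of the skin protein loricrin, with 32.7%, 13 footprints in replicate 1 and 8 in replicate 2.

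Adding chromosome X gave 709 dense regions, 14 more than the autosomes alone, and 657 coding genes with a dense promoter region.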
